A study of Mus musculus with 6 samples.

Results

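The TNF ligand and receptor superfamily was followed in the lungs of allergic mice across 32 genes. They were taken by symbol: Tnf, Lta, Ltb and every gene whose platform symbol begins with Tnfrsf, Tnfsf, Tnfaip or Traf and a digit, with a value on at least 4 of 6 arrays. The array carried probes for 45 such genes, so 13 are not covered by the counts below. Each member is read from 1 probe, the one with a value on most arrays and, where probes tied, the first in the table. Measured over the whole array, 11629 probes could be tested, standing for 9774 genes with a symbol.

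The series compared the lungs of 6 C57 mice, each sensitized and challenged with ovalbumin (OVA), with a single lung RNA pool made from C57 controls. Both the OVA samples and the pool were amplified RNA, and each two-colour array carried 1 OVA mouse and the same pool. The labels give no age, dose, time, dye or treatment of the controls, nor the number of mice in the pool. The pool is a single control sample, so the spread between control mice is not part of any test here. Values are log ratios of the channels as deposited, centred on the median of each array, and read as log2, so that every fold below assumes a base of 2. The side of the ratio on which the OVA mice lie is not settled by the labels. Clca1 and Muc5ac, genes of mucus-secreting airway cells, had means of -3.06 and -2.63, and Retnla and Arg1, genes known from allergic mouse lungs, had means of -2.81 and -2.26. Ratios are printed with their deposited sign, sizes as folds apart, and a member is called negative or positive by that sign alone.

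TNF family ligands are mostly trimeric proteins on the surface of immune and stromal cells, some of them shed, and they bind receptors with cysteine-rich domains. The receptors either recruit TRAF adaptors, which switch on NF-κB and stress kinases, or carry death domains that can start apoptosis or necroptosis. In lung, Tnf is a product of macrophages, mast cells and lymphocytes, while BAFF and its relatives keep B cells alive and several receptors costimulate T cells.

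The family showed a few clear ratios and many near 0. In all, 8 of the 32 members passed limma at a Benjamini-Hochberg adjusted p of 0.05, 7 negative and 1 positive. Of all tested probes 24.4% passed (12.3% negative and 12% positive), so the family's share of 25% lies at the level of the whole array. Members at least 1.5-fold apart as well as called numbered 5, all negative, which is 15.6% of the family. Of all tested probes 4.88% met both criteria, and 3.11% met them on the negative side. Those 5 were Tnfrsf9, Tnf, Tnfrsf1b, Tnfaip8l1 and Tnfsf13b. The other called members, Tnfaip6, Tnfsf8 and Traf1, were less than 1.5-fold apart. The median of the members' mean log2 ratio was -0.074, and that of all tested probes was -0.003. Over the 23 members measured in all mice the median was -0.181, and with arrays scaled or quantile-normalized it was -0.043 and -0.044. A negative mean was seen for 26 members and a positive mean for 6, many of them close to 0. Of all 11629 tested probes, 5918 had a negative mean. With each probe's own variance in place of limma's moderated one, Tnfaip6 and Tnfsf8 alone of the 8 kept a call. That variance left 12.4% of all probes called, and Tnf (adjusted p = 0.0548) and Tnfsf13b (0.0518) missed the threshold. These shares are descriptions of a list whose members were chosen by name, and no list test was run.

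Mouse 3 stood apart in these genes as on the array as a whole, where its correlation with the other arrays across probes was between 0.17 and 0.42. The median log2 ratio of the family was -0.289, -0.130, 0.035, -0.180, -0.098 and -0.019 in mice 1 to 6. Without mouse 3 there were 11 called members, of 26.1% called over all probes, and the median was -0.136. The count was lower when some other mice were left out, at 4 without mouse 2 and 4 without mouse 4. The whole array lost calls in the same fits, with 11.8% of all probes called without mouse 2 and 11.4% without mouse 4. Called members at least 1.5-fold apart numbered 3 without mouse 1, 2 without mouse 2 and 1 without mouse 4, where 4.07%, 3.05% and 3.2% of all probes met both criteria. Of the 23 members measured in all mice, 7 were on the same side of 0 in every mouse, all negative. Of all probes measured in 6 mice, 30.2% were on 1 side in every mouse and 14.3% were negative in every mouse.

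**Figure D1:**
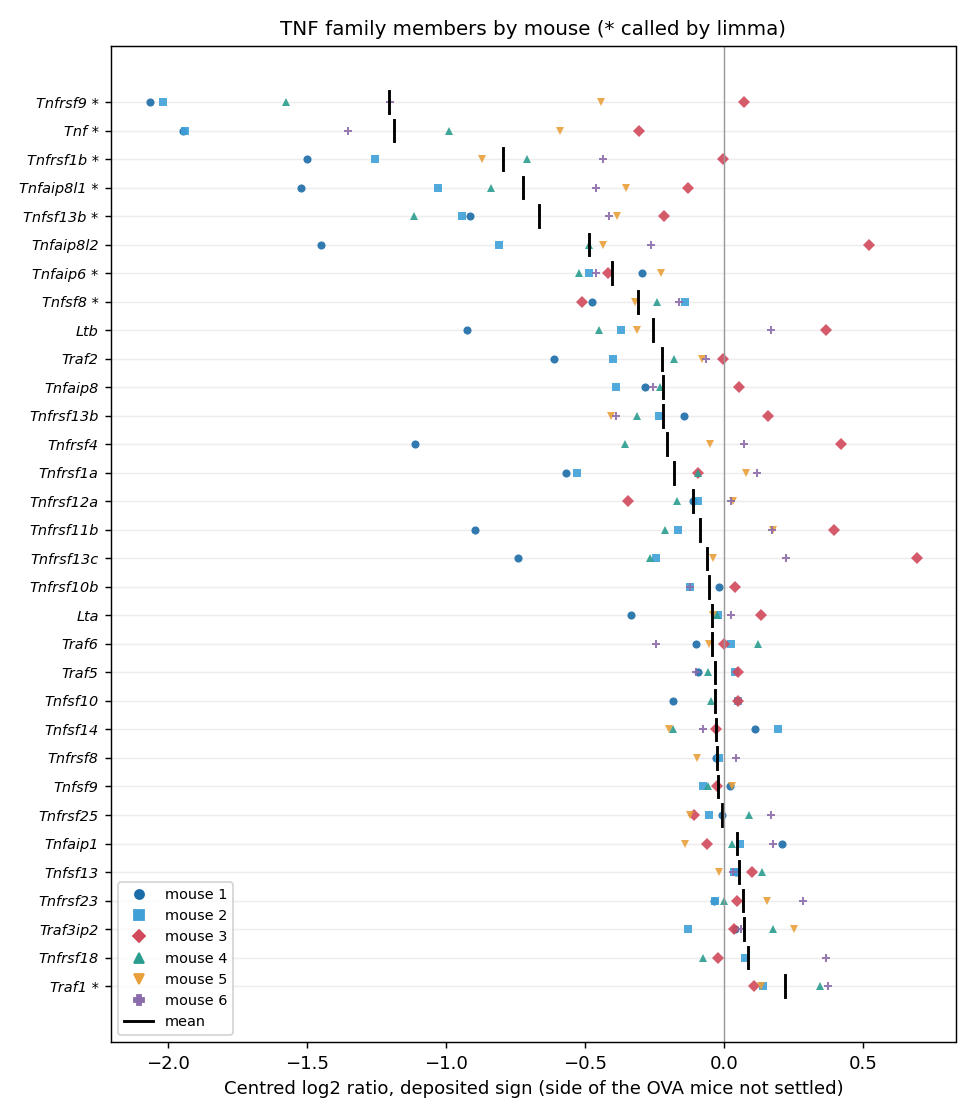
Centred log2 ratio, with its deposited sign, of each of the 32 family members (rows, ordered by mean) in the 6 OVA mice against the shared pool. Each symbol is 1 mouse, the black bar is the mean and an asterisk marks a call by limma; Tnfrsf9 and Tnf lead with means of -1.21 and -1.19, and the red diamonds of mouse 3 lie near or above 0 for most of the leading genes but not for Tnfaip6 and Tnfsf8.

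**Figure D2:**
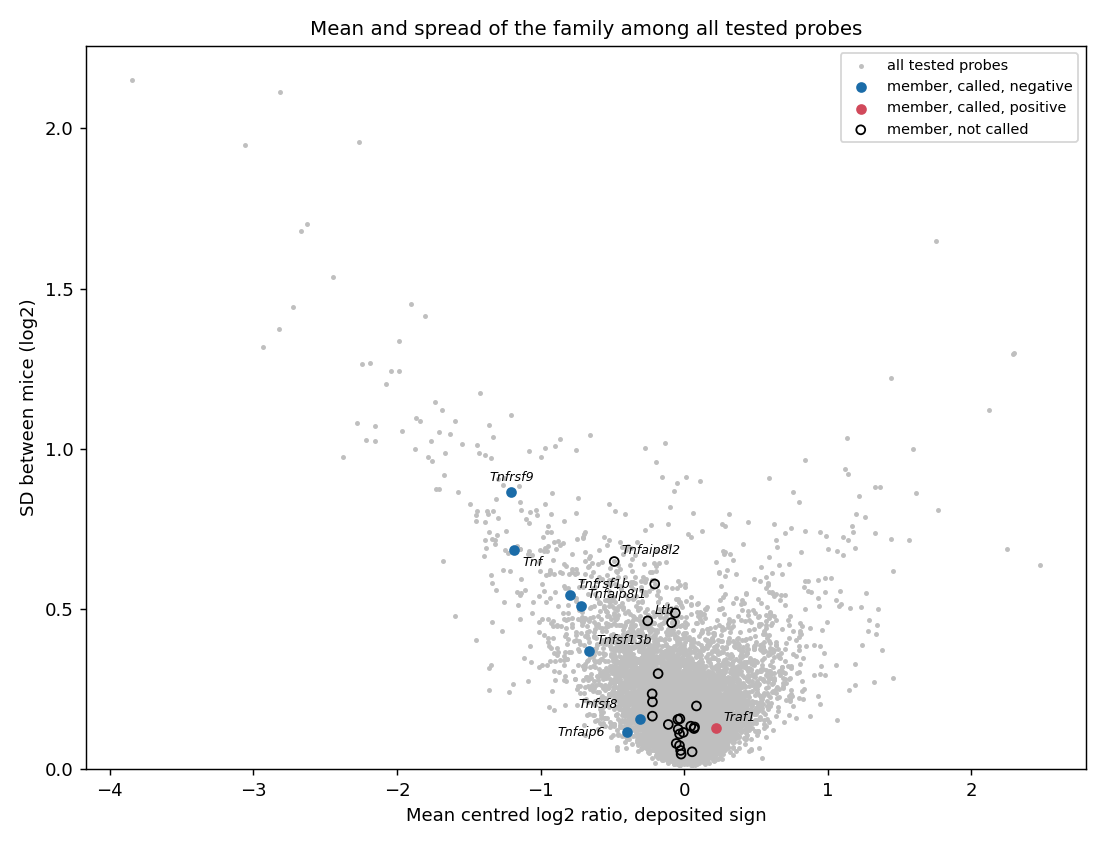
Mean centred log2 ratio (horizontal) against the SD between mice (vertical, log2) for all 11629 tested probes in grey and the 32 members in colour or as open circles. Tnfrsf9, with an SD of 0.87, and Tnf, with 0.68, had a wide spread, while Tnfaip6, at -0.40, had an SD of 0.12.

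Among the 9 ligands, 3 were called, all negative (33.3%). Of all tested probes 24.4% were called, 12.3% negative. This count and those of the receptors, Tnfaip and Traf genes below rest on few genes and are descriptions. Tnf, the founding cytokine of the family, had log2 ratios of -1.95, -1.94, -0.30, -0.99, -0.59 and -1.35 in mice 1 to 6. All 6 mice lay on the negative side, mice 1 and 2 farthest from 0 and mouse 3 nearest. Its mean was -1.19 ± 0.68 (SD, n = 6), which is 2.28-fold apart (limma, adjusted p = 0.0126), and it was 2.57-fold apart without mouse 3. Its call remained whichever mouse was left out, with adjusted p between 0.00584 and 0.0416 in limma.

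Tnfsf13b, which encodes BAFF, the survival factor of mature B cells, was at -0.91, -0.94, -0.22, -1.11, -0.39 and -0.42 in mice 1 to 6. Mice 1, 2 and 4 lay beyond the other 3, and all were negative. The mean was -0.66 ± 0.37 (SD, n = 6), 1.58-fold apart (limma, adjusted p = 0.0121), and the call remained without any single mouse. Tnfsf8, a ligand carried by activated T cells, was at -0.47, -0.14, -0.51, -0.24, -0.32 and -0.16. It differed from Tnf and BAFF in that mouse 3 had the ratio farthest from 0. Its mean of -0.31 ± 0.16 (SD, n = 6) was 1.24-fold apart (limma, adjusted p = 0.0129), and leaving out any mouse kept the call.

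The lymphotoxins Lta and Ltb, which shape lymphoid tissue, are the immediate neighbours of Tnf on mouse chromosome 17, 1 on each side, and neither was called. Lta was at -0.33, -0.022, 0.13, -0.026, -0.039 and 0.026 in mice 1 to 6, with mouse 1 alone clearly away from 0. Its mean was -0.044 with a 95% interval of -0.18 to 0.098 (limma, adjusted p = 0.629). Ltb was at -0.93, -0.37, 0.37, -0.45, -0.31 and 0.17, with mice on both sides of 0, and its mean was -0.25 ± 0.46 (limma, adjusted p = 0.275). The probe of Ltb lies 6 numbers from that of Cd48, which was at -0.82, and the part of that probe in the value was not tested. The remaining ligands were the death ligand Tnfsf10 (TRAIL), the BAFF relative Tnfsf13 (APRIL), Tnfsf14 (LIGHT) and Tnfsf9. Their means lay between -0.032 and 0.056, and none was called.

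Of the 13 receptors, 2 were called, both negative (15.4%, beside 24.4% of all tested probes called). Tnfrsf9, a costimulatory receptor induced on activated T cells and NK cells, had the largest mean of the family. It was at -2.07, -2.02, 0.072, -1.58, -0.44 and -1.20 in mice 1 to 6. Mouse 3 lay on the other side of 0 from the other 5 mice, and mouse 5 was between them. The mean was -1.21 ± 0.87 (SD, n = 6), 2.31-fold apart (limma, adjusted p = 0.0244), and 2.75-fold without mouse 3. The call was lost without mouse 1 (adjusted p = 0.0529), mouse 2 (0.0755), mouse 4 (0.0768) or mouse 6 (0.0635). Tnfrsf9 is also the only member with a further tested probe, and the probes disagreed. The other probe was at -0.45, -0.006, -0.19 and -0.007 in mice 2, 4, 5 and 6, with no value in mice 1 and 3. Its mean was -0.16 ± 0.21 (limma, n = 4, adjusted p = 0.24). With the probes averaged, Tnfrsf9 was at -0.82 and was not called (limma, adjusted p = 0.0503).

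Tnfrsf1b encodes the TNF receptor that lacks a death domain and is found mainly on leukocytes and endothelium. It was at -1.50, -1.26, -0.004, -0.71, -0.87 and -0.43 in mice 1 to 6. Mouse 3 lay next to 0, and the other 5 were clearly negative. The mean was -0.80 ± 0.54 (SD, n = 6), 1.74-fold apart (limma, adjusted p = 0.0216). This call was lost without mouse 2 (adjusted p = 0.0693), mouse 4 (0.0603) or mouse 5 (0.0549). Its neighbour on mouse chromosome 4, Tnfrsf8, was at -0.024 in 4 mice and had no call. Tnfrsf1a, the widely expressed TNF receptor with a death domain, had ratios between -0.57 in mouse 1 and 0.12 in mouse 6. Mice lay on both sides of 0, and the mean of -0.18 had a 95% interval of -0.43 to 0.063 (limma, adjusted p = 0.24). Its probe lies 6 numbers from that of Cdc45, at -0.93, and 18 from that of Ccl1, at -0.78.

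The BAFF receptors were not called. Tnfrsf13b (TACI) was at -0.14, -0.23, 0.16, -0.31, -0.41 and -0.39, negative in 5 of 6 mice, with a mean of -0.22 ± 0.21 (limma, adjusted p = 0.0739). Without mouse 3 it was at -0.30 and was called (limma, adjusted p = 0.00945). Tnfrsf13c, the receptor specific to BAFF, ranged from -0.74 in mouse 1 to 0.70 in mouse 3 around a mean of -0.062 (limma, adjusted p = 0.814). The costimulatory Tnfrsf4 (OX40) had a similar range, from -1.11 in mouse 1 to 0.42 in mouse 3, with no value in mouse 2 (mean -0.20, adjusted p = 0.505 in limma). Tnfrsf11b, the decoy receptor osteoprotegerin, ran from -0.89 in mouse 1 to 0.40 in mouse 3 (mean -0.087, limma, adjusted p = 0.716). In these last 3 genes mouse 1 and mouse 3 were the extremes on opposite sides. The remaining receptors were Tnfrsf12a, Tnfrsf10b, Tnfrsf8, Tnfrsf25, Tnfrsf23 and Tnfrsf18, which had means between -0.11 and 0.086 and no call.

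At the threshold of 4 arrays, the members just inside were Tnfrsf10b at -0.055, Tnfrsf8 at -0.024, Tnfrsf18 at 0.086 and Tnfsf10 at -0.032. Just outside, with values on 3 arrays, were Tnfrsf22 at 0.026, Tnfsf12 at 0.13 and Tnfsf4, the ligand of OX40, at 0.038. Tnfrsf19 had values on 2 arrays, and Tnfaip2 and Tnfrsf17 on 1. No array gave a value for Tnfaip3, the NF-κB inhibitor A20, or for Tnfrsf11a, Tnfrsf14, Tnfrsf21, Tnfsf11, Traf3ip1 and Traf4, 7 genes in all.

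The members whose symbols begin with Tnfaip are not ligands or receptors. Of the 5 measured, 2 were called (40%, beside 24.4% of all tested probes). Tnfaip6, a secreted hyaluronan-binding protein made in inflamed tissue, was at -0.29, -0.49, -0.42, -0.52, -0.23 and -0.46 in mice 1 to 6. Mouse 3 lay within the range of the others, and the mean was -0.40 ± 0.12 (SD, n = 6), 1.32-fold apart. It had the lowest adjusted p of the family (limma, 0.00422) and between 0.00501 and 0.0201 when single mice were left out. Tnfaip8l1 was at -1.52, -1.03, -0.13, -0.84, -0.35 and -0.46, all negative, with a mean of -0.72 ± 0.51 (SD, n = 6), 1.65-fold apart (limma, adjusted p = 0.0242). Its call was lost without mouse 2 (adjusted p = 0.0775) or mouse 4 (0.0739). Tnfaip8l2, a restraint on innate and T cell receptor signalling, was at -1.45, -0.81, 0.52, -0.48, -0.44 and -0.26. The mean of -0.49 ± 0.65 was not called (limma, adjusted p = 0.143), while without mouse 3 it was -0.69 and called (adjusted p = 0.0264). Their relative Tnfaip8 was at -0.22 in 5 mice (adjusted p = 0.0608) and at -0.29 without mouse 3 (limma, adjusted p = 0.013). Tnfaip1, an adaptor of a cullin ubiquitin ligase, was at 0.046 and not called.

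Of the 5 members whose symbols begin with Traf, Traf1 alone was called (20%, beside 24.4% of all tested probes). It was the only family member called on the positive side. Traf1, an adaptor that itself is a common NF-κB target, was at 0.14, 0.11, 0.35, 0.14 and 0.37 in mice 2 to 6, with no value in mouse 1. All 5 values were positive, and the mean of 0.22 ± 0.13 (SD, n = 5) was 1.17-fold apart (limma, adjusted p = 0.037). The probe of Traf1 lies 6 numbers from that of Cox7a1, a muscle and brown fat gene at 1.27, and its part in the value was not tested. Over all probes 6 numbers apart the mean ratios had a Pearson r of 0.13 across 9284 pairs of probes, which are not independent replicates. The call was lost without mouse 2 (adjusted p = 0.0794), mouse 4 (0.117), mouse 5 (0.0649) or mouse 6 (0.0977). Traf2, the adaptor shared by most receptors of the family, was negative in 6 of 6 mice, from -0.61 in mouse 1 to -0.005 in mouse 3, with a mean of -0.22 ± 0.24 that was not called (limma, adjusted p = 0.0935). Traf5, Traf6 and the adaptor gene Traf3ip2 had means between -0.041 and 0.073 and no call.

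Ligands, their receptors and chromosomal neighbours were set side by side within arrays, as the difference between the ratios of 2 genes, in 9 pairs. The pairs were picked with these values known, so the differences are a description and were not tested. A within-array difference does not depend on the centring. Tnf minus its neighbour Lta was -1.14 ± 0.59 (SD, n = 6), and Tnf minus Ltb was -0.93 ± 0.53 (SD, n = 6). Both differences were negative in 6 of 6 mice. The BAFF gene Tnfsf13b minus its relative Tnfsf13 was -0.72 ± 0.39, and Tnfsf13b minus its receptor gene Tnfrsf13c was -0.60 ± 0.29, also negative in 6 of 6 mice.

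Tnfrsf1b minus Tnfrsf1a, the genes of the TNF receptors, was -0.61 ± 0.38, negative in 5 of 6 mice and at 0.089 in mouse 3. Tnf minus Tnfrsf1b was -0.39 ± 0.41 and Tnfsf13b minus Tnfrsf13b was -0.44 ± 0.37, each negative in 5 of 6 mice. Tnfrsf9 minus its ligand Tnfsf9 was -1.19 ± 0.96, negative in 4 of the 5 mice with both values. Tnfsf8 minus its receptor Tnfrsf8 was -0.25 ± 0.14 in the 4 mice with both values, all negative.

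**Figure D3:**
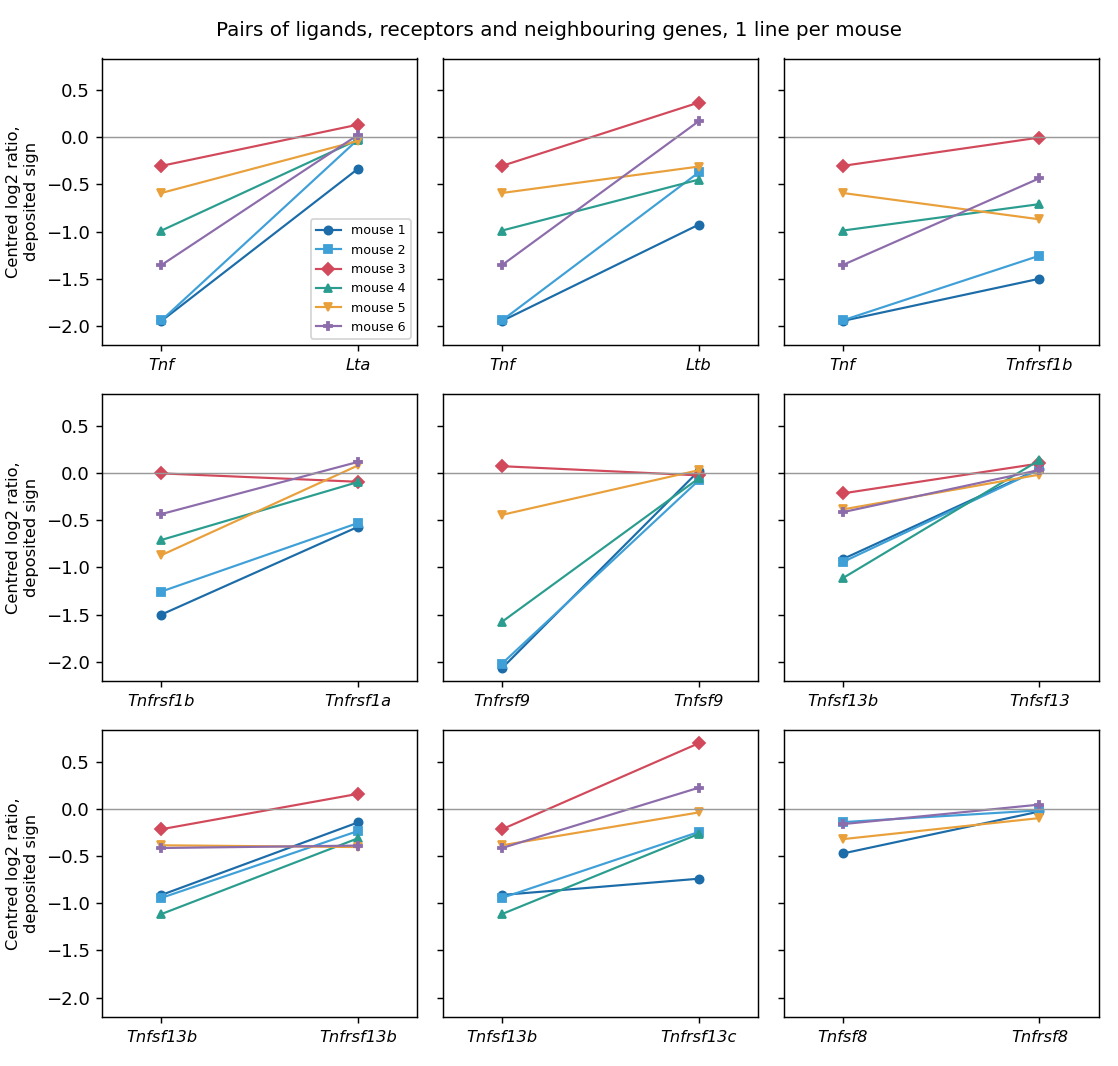
Centred log2 ratio, with its deposited sign, of the 2 genes of each of the 9 pairs, 1 line per mouse with values for both. The lines from Tnf to Lta and to Ltb, and from Tnfsf13b to Tnfsf13 and to Tnfrsf13c, run upward in 6 of 6 mice. Those from Tnfrsf1b to Tnfrsf1a and from Tnfrsf9 to Tnfsf9 run upward in all mice with both values except mouse 3.

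NF-κB drives many genes of this family, so the RefSeq promoter windows (GRCm38.p6, 250 bases before to 50 after each start) of the members were searched for the NF-κB consensus, the κB motif of 10 bases, on both strands. Of 30 windows of 27 members, 5 held at least 1 match, against 8.46% of 32851 windows of the table. The called members had 10 windows, and 2 of these held a match. Those windows and that of Ltb are shown because they carry the match among the genes described one by one above, with the motif in capitals.
Tnfrsf9: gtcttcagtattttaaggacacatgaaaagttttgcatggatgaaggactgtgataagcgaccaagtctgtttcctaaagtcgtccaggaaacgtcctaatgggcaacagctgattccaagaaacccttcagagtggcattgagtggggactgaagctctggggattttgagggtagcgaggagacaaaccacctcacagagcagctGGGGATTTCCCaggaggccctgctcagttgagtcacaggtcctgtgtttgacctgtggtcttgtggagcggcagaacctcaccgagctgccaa
Tnfaip8l1: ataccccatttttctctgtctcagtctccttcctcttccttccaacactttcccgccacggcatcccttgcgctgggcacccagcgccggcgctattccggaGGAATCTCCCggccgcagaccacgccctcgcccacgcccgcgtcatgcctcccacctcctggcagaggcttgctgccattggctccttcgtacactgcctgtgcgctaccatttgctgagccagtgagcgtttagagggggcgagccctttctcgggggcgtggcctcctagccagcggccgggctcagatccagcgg
Ltb: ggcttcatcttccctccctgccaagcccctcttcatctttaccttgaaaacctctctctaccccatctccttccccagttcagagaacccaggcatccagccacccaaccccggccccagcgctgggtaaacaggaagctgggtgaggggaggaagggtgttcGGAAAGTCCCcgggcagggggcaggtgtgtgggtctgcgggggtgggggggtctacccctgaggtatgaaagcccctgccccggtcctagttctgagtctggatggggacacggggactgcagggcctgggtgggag
They lie at chr4:150927749-150928048, chr17:56162241-56162540 and chr17:35194257-35194556, all on the plus strand. In Tnfrsf9 2 overlapping matches begin 43 and 42 bases before the start, in a window that is 1 of 2 listed for that gene. The match of Tnfaip8l1 begins 148 bases before the start and that of Ltb 87 bases before it. The match was thus present in members with a called ratio and in Ltb, which was not called. The other members with a match were Tnfrsf8 and Tnfrsf25. No match was present in the windows of Tnf, Tnfrsf1b, Tnfsf13b, Tnfaip6, Tnfsf8 and Traf1, which says only that these letters are not in those windows.

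Downstream of the receptors, 34 of 66 listed signalling genes could be tested. Adaptors, kinases, NF-κB subunits and inhibitors, proteases and family members with other symbols made up this list. Of the 34, 10 were called in limma, 9 negative and 1 positive, or 29.4%, beside 24.4% of all tested probes. The median of their means was -0.119. Without mouse 2 the count was 3, without mouse 4 it was 5, and without mouse 6 it was 6, where 11.8%, 11.4% and 14.7% of all probes were called.

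Tank, a TRAF-binding regulator of NF-κB and of the kinase Tbk1, had the lowest adjusted p of the list. Its ratios were -0.66, -0.86, -0.55, -0.67, -0.58 and -0.87 in mice 1 to 6, all negative and close together, mouse 3 included. The mean was -0.70 ± 0.14 (SD, n = 6), 1.62-fold apart (limma, adjusted p = 0.00163), and every fit that left out a mouse called it. Birc3, an inhibitor of apoptosis that works with Traf2, was at -0.67 ± 0.26, 1.59-fold apart (limma, adjusted p = 0.00552). A further Birc3 probe was at -0.054 and was not called (adjusted p = 0.545), so its probes disagreed. Tab2, which links TRAF proteins to their kinase, was at -0.36 ± 0.17 (limma, adjusted p = 0.0101) and negative in 6 of 6 mice.

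The other calls on the negative side were each lost in at least 1 fit that left out a mouse, and such fits have fewer arrays. Of all probes, 24.4% were called with all mice, 11.8% without mouse 2 and 11.4% without mouse 4. Bcl10, an NF-κB adaptor of lymphocytes, was at -0.58 and the receptor Cd40 of B cells and macrophages at -0.51. Trafd1 was at -0.41 in 4 mice, the NF-κB inhibitor Nfkbie at -0.40, Tbk1 at -0.36 and the death protease Casp8 at -0.31. All 6 lost their call without mouse 2, with adjusted p between 0.0518 for Tbk1 and 0.0984 for Cd40 in limma. Without mouse 4, Bcl10 (0.0599), Cd40 (0.0804), Tbk1 (0.0599) and Casp8 (0.0925) lost it as well. Without mouse 1 the call was lost by Cd40 (0.0653), Trafd1 (0.0576) and Casp8 (0.0781), without mouse 5 by Bcl10 (0.0595) and Cd40 (0.0713), and without mouse 6 by Cd40 (0.0915), Trafd1 (0.0647) and Casp8 (0.0912). Sharpin, a subunit of the linear ubiquitin ligase, was positive in 5 of 5 mice at 0.25 ± 0.14 (limma, adjusted p = 0.0279), and only the fit without mouse 1, in which it has no value, kept that call. Its adjusted p was between 0.0548 and 0.0727 without each of the other mice.

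Of the genes not called, Mlkl, the executioner of necroptosis, had the largest mean at -0.74 ± 0.72. It ranged from -1.49 in mouse 1 to 0.30 in mouse 5 (limma, adjusted p = 0.0618), and was called without mouse 3 (adjusted p = 0.0383) or without mouse 5 (0.0293). The death-domain adaptor Tradd was at -0.26, the ubiquitin-binding Tax1bp1 at -0.22 and the ligase subunit Rbck1 at 0.21. The NF-κB subunits Rela, Relb and Nfkb2 were at 0.16, -0.16 and 0.075 and had no call, and Fasl was at 0.064 with no call. Without mouse 1, Rela was called at 0.20 (limma, adjusted p = 0.0248) and Xiap at -0.19 (limma, adjusted p = 0.0302). Without mouse 3, Birc2 was called at -0.22 (limma, adjusted p = 0.034). For Fas, Fadd, Ikbkg and Rel no array gave a value, and Cd40lg and Cd27 had values on 2 arrays.

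**Figure D4:**
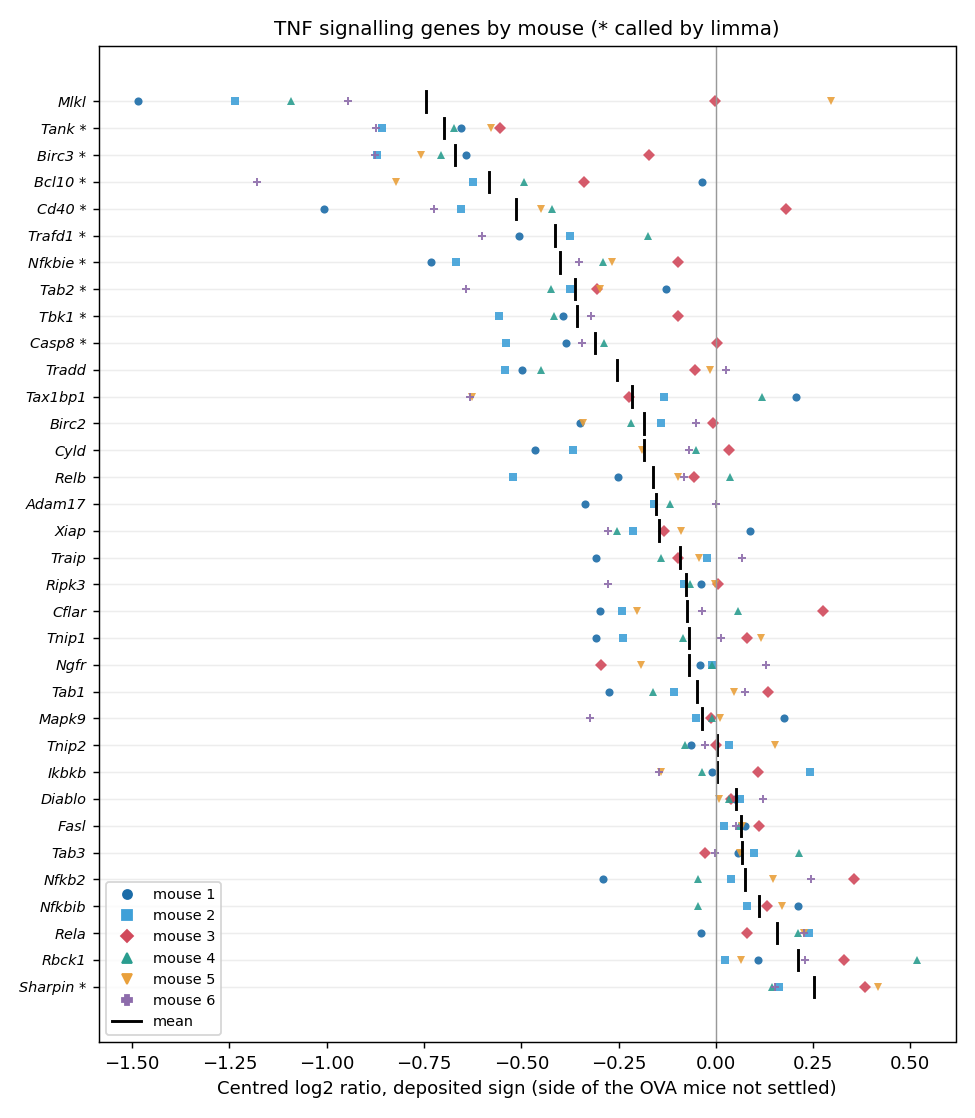
Centred log2 ratio, with its deposited sign, of the 34 tested TNF signalling genes (rows, ordered by mean) in the 6 OVA mice. Each symbol is 1 mouse, the black bar is the mean and an asterisk marks a call by limma; Tank, at -0.70, has all 6 mice close together, while Mlkl, at -0.74, has mice 3 and 5 at or above 0.

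Lung is a mixture of cells. In bulk RNA a changed number of cells of a type and a changed amount of RNA per cell cannot be told apart. Of 8 lung epithelium markers 7 could be tested, so the defining transcripts of the labelled tissue gave values on the arrays. The mean over those 7 was between -0.04 in mouse 3 and 0.93 in mouse 1, with 3 called positive and 2 negative. The mean over 4 tested macrophage markers was between -0.95 and 0.25 in single mice, with mouse 3 highest and 1 of 4 called, negative. That over 6 B cell markers was between -0.44 and 0.27, again highest in mouse 3, with none called. That over 4 T cell markers was between -0.56 and 0.15, with 1 called, positive. Endothelial markers had 3 of 5 called, positive, with means between 0.10 and 1.10. Heart muscle and adipocyte markers lay on the positive side in every mouse, between 0.33 and 2.30 and between 0.77 and 2.02, with 6 of 6 and 3 of 4 called. Of all tested probes 24.4% were called, 12.3% negative and 12% positive, so 1 of 4 markers called lies near the level of the whole array. The part of these cell types in the ratios of the family was not tested.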

How the data were processed

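Lung RNA of 6 OVA mice was measured against 1 pool of control lung RNA on two-colour arrays of 17280 probes, and the authors deposited 1 log ratio per probe and array, which was read here as log2. What scanner, dyes, background correction, normalization and spot filter were used, and the direction and base of the logarithm, is not given in the sources used here. Arrays had 10922 to 13132 values. Each was centred on its median over 8663 probes measured on all arrays (deposited medians between -0.012 and 0.008). The platform annotation gave 1 symbol for 14722 probes, several for 1 and none for 2557. A set of 170 rows repeating 10 sequences and 4 plant rows was left out.

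Probes with a value on at least 4 arrays entered an intercept-only model in limma (version 3.58.1, R 4.3.3; eBayes, two-sided test against 0), with p-values adjusted over all 11629 probes with the Benjamini-Hochberg method at 0.05, beside a fold floor of 1.5. The number of arrays limits the precision, and dye effects of single genes may remain, since the dyes of each array are not known here. The fit was also run on simulated normal values, drawn independently with each probe's own SD. Those values leave out the spread between control mice and the low agreement of mouse 3, so that run says nothing about either. Every called member, Tnf, Lta, Ltb and the 8 members with the largest mean were given mouse by mouse. Of the signalling list, Tank was given mouse by mouse, and the other called genes and the 4 largest not called by mean or range. Tnfrsf13b, Traf2, Tnfaip8 and other members were added for completeness. Rela, Relb, Nfkb2, Xiap, Birc2, Fasl, Fas, Fadd, Ikbkg, Rel, Cd40lg and Cd27 were picked with their values in view. So were Clca1, Muc5ac, Retnla, Arg1, Cox7a1, Cd48, Cdc45 and Ccl1. The members, lists and pairs were chosen with earlier results of these data known. Alternatives were other centring, scaling, array minimum, weights, variance and threshold settings, averaged probes, a natural logarithm, omission of neighbouring probes and leaving out each mouse. Figures were drawn with matplotlib 3.10.9.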

Additional observations from a re-analysis of the deposited data

Results flagged for a closer look

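Among 42 genes tested (the 32 members and the 10 called signalling genes), 2 had a mouse far from the others by Dixon's test at the 95% level. Chance flags about 1 in 20 groups. Lta was at -0.333 in mouse 1, while the other 5 mice lay between -0.039 and 0.133. Birc3 was at -0.172 in mouse 3, while the other 5 mice lay between -0.877 and -0.643.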

How the results depend on the processing

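The 8 called members were called in the same number without centring, with scaled or quantile-normalized arrays and with robust variances, and 10 were called with array weights. With unmoderated variances, by which 12.4% of all probes passed, 2 were called (Tnfaip6 and Tnfsf8) and 0 were at least 1.5-fold apart. At an unadjusted p under 0.05, 5 members were at least 1.5-fold apart in that test and 5 in limma. Many probes met that unadjusted threshold, 4564 of all 11629 tested in limma. The share of all probes meeting it was not counted in the unmoderated test or with the fold floor. These counts of 5 therefore cannot be set against the whole array. At an adjusted p of 0.01 in limma 1 member was called (Tnfaip6) and 0 were at least 1.5-fold apart as well. The share of all probes called was not counted at that threshold, with array weights or on 6 of 6 arrays. Counts under those settings therefore cannot be set against the whole array. With single mice left out, the count lay between 4 and 11, that of members at least 1.5-fold apart between 1 and 6, the family median between -0.136 and -0.045, and the count of called signalling genes between 3 and 11. Without probes near one with a ratio at least 4 times as large and of the same sign, the median was -0.213 over 24 members, since members near 0 are left out by that rule. Without probes near one with a mean of at least 1, an alternative added after seeing the data, Traf1 was left out and 7 members were called. The count of signalling genes was 6 over the 28 measured on 6 of 6 arrays, 4 with unmoderated variances and 2 at an adjusted p of 0.01. Lta turned to 0.014 without mouse 1 (limma, adjusted p = 0.836) and was as low as -0.079 without mouse 3. Over the 17 alternatives the called members gave 133 values, and 106 of these were still called. All had the sign of the full data. Settings of variance, threshold, array minimum and probe omission leave a member's mean as it was, so its sign could not change there. No paired analysis was possible because all mice form 1 group set against 1 pool.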

Other observations

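Mouse 3, in which the leading members lay near 0, was set against the other mice for each called gene with a value there. Of the 8 called members, mouse 3 lay inside the range of the others for Tnfaip6, at -0.42, and beyond it on the negative side for Tnfsf8, at -0.51, where the other 5 mice lay between -0.47 and -0.14. For the remaining 6 it lay outside the range and nearer to 0 or past it, as for Tnf at -0.30, where the other 5 mice lay between -1.95 and -0.59. Of the called signalling genes it lay inside the range for 3, Bcl10 at -0.34, Tab2 at -0.31 and Sharpin at 0.38, and outside it, nearer to 0 or past it, for 6. Over all probes the log ratios of mouse 3 had the smallest spread of any array, with an SD of 0.212. The other arrays had SDs between 0.321 and 0.471. The same places were not counted over all called probes, so they are not a trait of these genes in particular. These values are a description of 1 mouse, and no difference was tested.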
